A study of Mus musculus with 192 samples.

Results

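The heart libraries described here followed microRNAs (miRNAs) over time after fentanyl at the lower and the middle of the 3 doses used. They were the 30 libraries of the heart table whose samples carried the treatment label LOEL or LD10 and a mouse number from FP16 to FP58, with FP38 left out, of 64 heart libraries and 192 samples in all. LOEL and LD10 held 15 libraries each, with 4 mice at 0h, 3 at 6h, 4 at 24h and 4 at 7 days in each arm. The question was whether heart miRNAs at 6h, 24h or 7 days differed from 0h within a dose, and whether the course over time differed between the doses.

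All mice were adult male SKH-1 Elite, a hairless but immunocompetent outbred stock, and each received a single subcutaneous dose of fentanyl citrate, an opioid agonist. The LOEL arm received 62 mg/kg, which the treatment description calls the highest non-lethal dose (HNLD), and the LD10 arm received 110 mg/kg. The 0h hearts were collected 40 min after dosing, so they were drug-exposed hearts and not untreated ones. No sham heart lay in this range of mouse numbers and none was used, so the effect of time after fentanyl cannot be told apart from anything else that differed between collections. Each library came from a separate mouse by its label, and the hearts are bulk tissue, in which fewer cells of a type and less miRNA per cell cannot be told apart.

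A miRNA is a short RNA that pairs with messenger RNAs mainly through its seed, bases 2 to 8 from the 5′ end, and lowers their translation or stability. Heart muscle is known for the miR-1 and miR-133 family, which are muscle miRNAs, and for miR-208a and miR-499, which lie inside myosin heavy chain genes. The miR-29 family is known for repressing collagen and other matrix genes, and the miR-30 family is abundant in heart muscle cells.

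The mature sequences of the miRNAs on which the results turn are shown so that shared seeds can be seen. They are RefSeq entries (build GRCm38.p6), 5′ to 3′, with the seed in capitals.
miR-30e-5p: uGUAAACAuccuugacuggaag
miR-582-5p: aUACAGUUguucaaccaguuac
miR-29c-3p: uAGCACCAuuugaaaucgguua
miR-29a-3p: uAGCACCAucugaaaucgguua
miR-29b-3p: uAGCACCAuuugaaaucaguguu
miR-499-5p: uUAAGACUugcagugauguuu
miR-208a-3p: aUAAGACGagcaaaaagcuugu
miR-411-5p: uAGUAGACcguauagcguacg
miR-27a-5p: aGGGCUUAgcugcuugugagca
miR-141-3p: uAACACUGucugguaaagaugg
miR-200b-3p: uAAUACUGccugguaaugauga
miR-429-3p: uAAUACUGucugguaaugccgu
The 3 miR-29 members have one seed, as do miR-200b-3p and miR-429-3p. The seeds of miR-499-5p and miR-208a-3p are the same from base 2 to base 7 and differ by U8G, positions counted from 1 at the 5′ end and the miR-499-5p base given first. The seed of miR-141-3p differs from that of miR-200b-3p by U4C, with the miR-200b-3p base first.

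In the annotation of build NCBIM37 (mm9), Mir30e lies at chr4:120445211-120445302 on the minus strand in an intron of Nfyc, and Mir582 at chr13:110114938-110115018 on the plus strand in an intron of Pde4d. Mir29c lies at chr1:196863741-196863828 on the plus strand, overlapping an exon of the long noncoding RNA gene A330023F24Rik, and Mir29b-2 overlaps an exon of the same gene. Mir29a is at chr6:31012660-31012747 on the minus strand, with no other annotated gene over it. Mir499 lies at chr2:155448616-155448694 on the plus strand in an intron of Myh7b, and Mir208a at chr14:55567897-55567979 on the minus strand in an intron of Myh6.

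The libraries held between 334650 and 3933545 miRNA reads (median 2036132), recovered from the deposited values, which are scaled by the authors' TMM (trimmed mean of M values) factors. Of 1960 miRNAs listed, 308 reached a value of 10 in at least 3 of the 30 libraries, and these held at least 99.89% of each library's signal. The most abundant were miR-22-3p (16.1% of signal), miR-486a-5p (11.0%) and the muscle miRNA miR-133a-3p (10.7%). The heart muscle markers went with the heart label, as miR-133a-3p lay between 50445 and 153083 and miR-499-5p between 427 and 1771 in every library. Of the markers of other tissues, the liver miRNA miR-122-5p was at 0 in 16 libraries and at most 1.74, and the neuronal miR-124-3p was at most 6.21. Others were present, with the neuronal miR-9-5p at 49.1 to 152, and the epithelial miR-200b-3p up to 69.6 and miR-205-5p up to 40.9. The library with the fewest reads was FP24 (LOEL, 7 days), and FP41 (LD10, 7 days) lay farthest from the median profile (r = 0.972).

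At 6h in the LOEL arm, 3 miRNAs fell against 0h and none rose. They were miR-30e-5p, a member of the miR-30 family, miR-29c-3p of the miR-29 family, and miR-582-5p. Changes were tested by limma on log2(value + 1), a scale that understates the change of low miRNAs, and called at an adjusted p (Benjamini-Hochberg, over 308 miRNAs) under 0.05, and these 3 made up 0.974% of the miRNAs tested. At an unadjusted p under 0.05 there were 47 miRNAs (15.3%), of which 42 (13.6%) were lower and 5 higher.

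The 0h values of miR-30e-5p were 30752, 24757, 26046 and 24974, and the 6h values were 16465, 18096 and 18945. Every 6h library lay below every 0h library. The mean went from 26632 ± 2804 (SD, n = 4) to 17835 ± 1260 (SD, n = 3), a log2 fold change of -0.58 (SE 0.13, limma adjusted p = 0.0317). At 24h (26234 ± 2213, SD, n = 4) and 7 days (26170 ± 3293, SD, n = 4) the level was near that at 0h again.

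For miR-582-5p the 0h values were 127, 138, 63.6 and 76.4, and the 6h values were 39.9, 55.6 and 34.8. The groups did not overlap, although the 0h mice differed among themselves by more than the 6h mice did. The log2 fold change was -1.15 (SE 0.27, limma adjusted p = 0.0317), or 0.449 of the 0h level. Over all 308 miRNAs, 7.14% had every LOEL 6h library below every 0h library and 0.649% had every one above.

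For miR-29c-3p the 0h values were 1515, 1422, 817 and 912, and the 6h values were 370, 981 and 457. The groups overlapped, because FP45 at 6h was above both FP32 and FP47 at 0h. The log2 fold change was -1.03 (SE 0.25, limma adjusted p = 0.0317). Leaving out FP45 moved it to -1.45 and leaving out FP33 moved it to -0.75. The other members of the family were near it, with miR-29a-3p at -1.07 (limma adjusted p = 0.0552) and miR-29b-3p at -0.96 (limma adjusted p = 0.149). Of the 5 miR-29 family members tested, limma called 1, DESeq2 called 2 (miR-29c-3p and miR-29a-3p) and limma with library weights called 3. By limma 4 of the 5 were lower at an unadjusted p under 0.05, as were 13.6% of all miRNAs tested. The median log2 fold change of the 5 was -0.96, against -0.10 over all miRNAs tested.

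**Figure D1:**
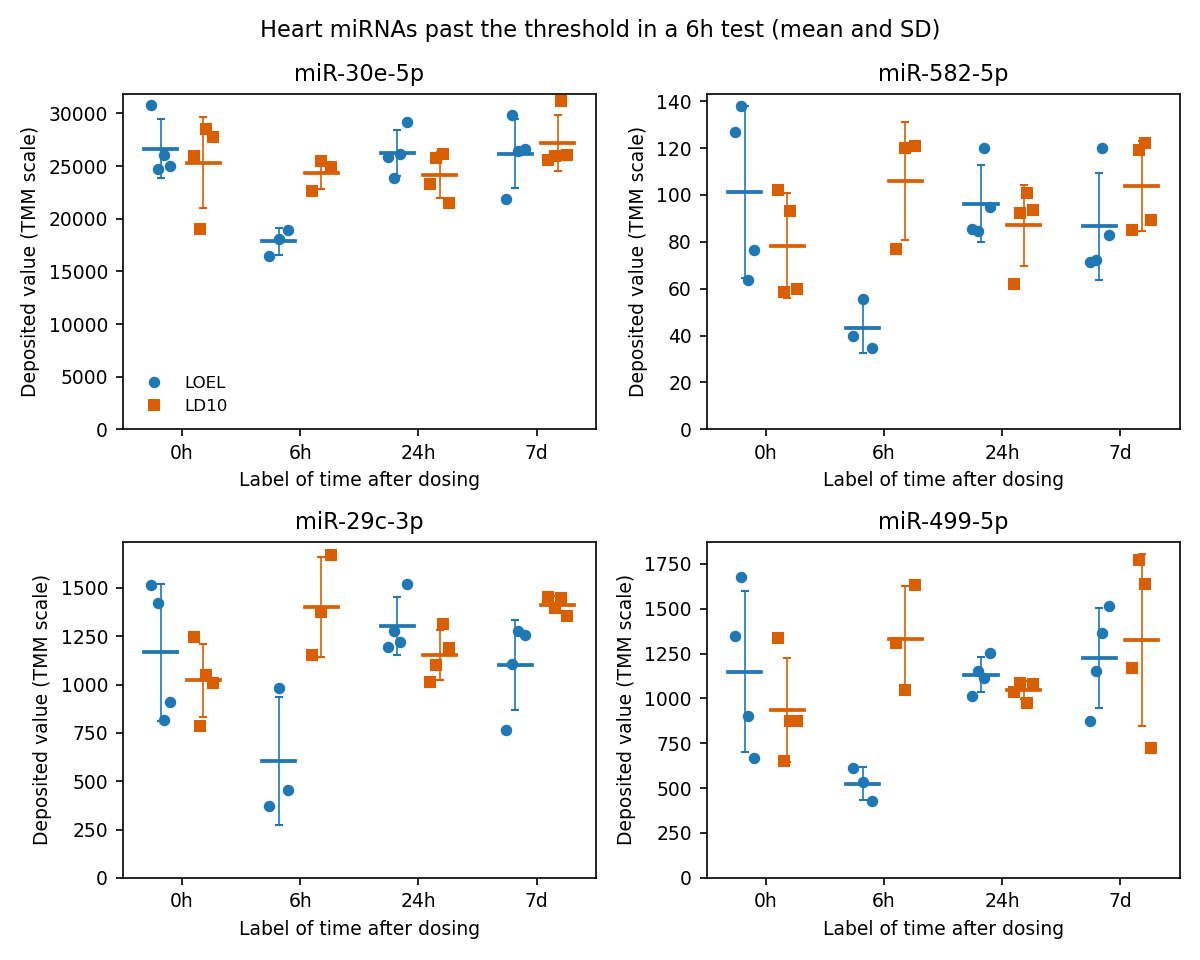
Deposited values (TMM scale, y axis from 0) of miR-30e-5p, miR-582-5p, miR-29c-3p and miR-499-5p by labelled time (x axis) in the LOEL arm (circles) and the LD10 arm (squares); each point is 1 heart, the bar is the mean and the whiskers the SD. The LOEL 6h hearts are low for miR-30e-5p (16465 to 18945), miR-582-5p and miR-499-5p, while the LD10 6h hearts are not. For miR-29c-3p the LOEL 6h hearts are low except FP45 (981), which lies within the 0h range.

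Muscle miRNAs lay on the same side. miR-499-5p, encoded within a myosin gene, had 0h values of 1349, 1677, 904 and 669 and 6h values of 613, 534 and 427, with no overlap, and a log2 fold change of -1.06 (SE 0.28) that missed the threshold (limma adjusted p = 0.0552). miR-133a-3p, which represses smooth muscle genes in heart muscle cells of mice, had a mean of 112953 ± 17546 (SD, n = 4) at 0h and 65484 ± 8697 (SD, n = 3) at 6h (log2 fold change -0.78, limma adjusted p = 0.148). miR-1a-3p, the partner of miR-133a in shared transcripts, was at -1.11 (limma adjusted p = 0.149) and miR-208a-3p, from the alpha myosin heavy chain gene, at -0.77 (limma adjusted p = 0.149). Of the 10 heart muscle miRNAs tested limma called none, DESeq2 called 2 (miR-499-5p, adjusted p = 0.0122, and miR-208a-3p, adjusted p = 0.023) and limma with library weights called 5, adding miR-133a-3p, miR-133a-5p and miR-1a-3p. By limma 6 of the 10 were lower at an unadjusted p under 0.05, as were 13.6% of all miRNAs tested. The median log2 fold change of the 10 was -0.59, against -0.10 over all miRNAs. Not all members lay lower, as miR-208b-3p was at 0.28 and miR-208a-5p at 0.38, neither called by any of these tools.

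By limma, the miR-30 family gave 1 called member of 8, and 4 were lower at an unadjusted p under 0.05, among them miR-30b-5p (-0.49) and miR-30c-5p (-0.59). In the 23, 27 and 24 clusters 4 of 7 were lower at that unadjusted level (median -0.35), and in the fibroblast list 2 of 5 (median -0.31). Over all 308 miRNAs 42 (13.6%) were lower at that level, and the median was -0.10. The endothelial miRNA miR-126a-3p went from 8962 ± 2601 (SD, n = 4) to 5662 ± 1572 (SD, n = 3), a log2 fold change of -0.64 (limma adjusted p = 0.166), while its list partner miR-126a-5p was at 0.17.

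On the other side were miR-10b-5p, which lies in the Hoxd cluster, and miR-127-3p, from the imprinted cluster on distal chromosome 12. The 0h values of miR-10b-5p were 5546, 6721, 7452 and 10342, and the 6h values were 8912, 15334 and 19198. The ranges overlapped through FP47, and the log2 fold change of 0.91 (SE 0.33) was not called (limma adjusted p = 0.166). miR-127-3p was at 0.82 (limma adjusted p = 0.165). Of the 17 members of that imprinted cluster tested, 14 had a positive change, as had 113 of all 308 miRNAs. None of the 17 was called by limma, edgeR or DESeq2, and their median was 0.27. Limma with library weights called 2 of the 17 higher, miR-127-3p (0.93) and miR-541-5p (0.84). It also called miR-10b-5p higher (1.03), with an adjusted p of 0.0261 by that test for each of them.

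The summed heart muscle list was 91829 to 132626 at LOEL 0h and 63515 to 78823 at LOEL 6h, without overlap. It is mostly miR-133a-3p (124915 of 132143 in FP25), so it is not a measure separate from that miRNA. The summed epithelial list holds 11 miRNAs known from epithelium that mark tissue other than heart muscle. It was 115 to 820 at 0h and 464 to 756 at 6h, inside the 0h range. All 7 epithelial members tested had a positive change (median 0.59), as had 113 of all 308 miRNAs, and none was called. The defining member miR-205-5p was 0.353, 40.9, 24.5 and 0.721 at 0h and 8.51, 32.3 and 5.31 at 6h, so the groups overlapped and the 0h hearts differed most among themselves. Reads per library were 1661890 to 3740076 at 0h and 1345078 to 1712311 at 6h. The part of depth and of epithelial material in the 6h difference was not tested.

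**Figure D2:**
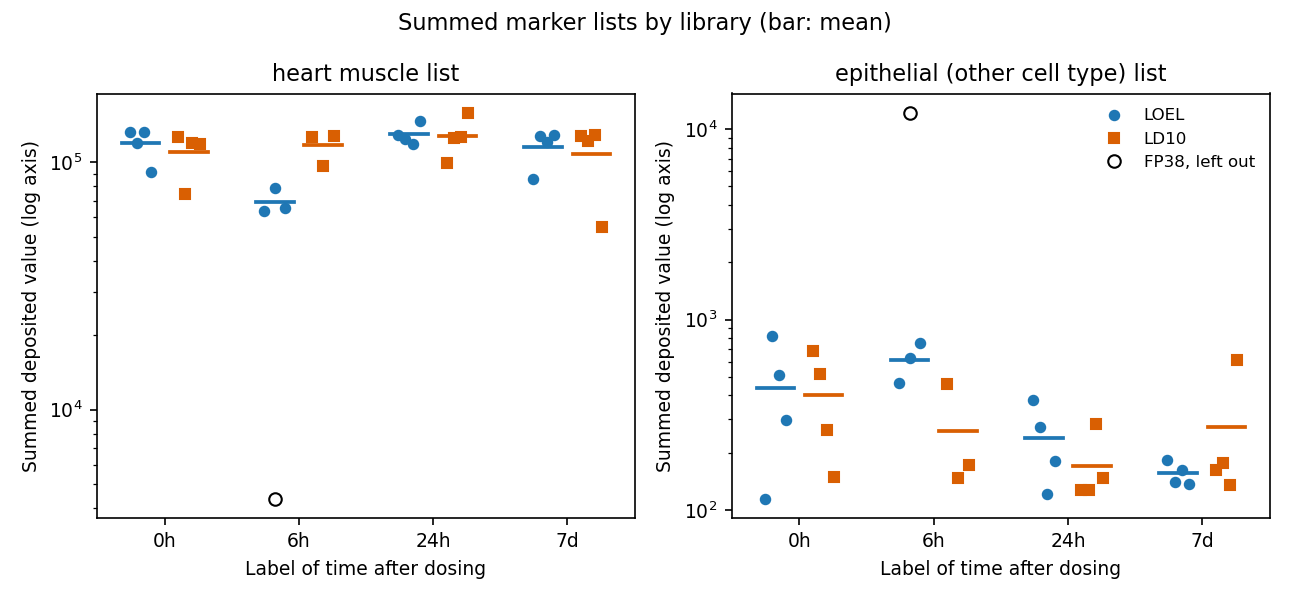
Summed deposited values (log axis) of the 14 heart muscle miRNAs and the 11 epithelial miRNAs by labelled time in the LOEL arm (circles) and the LD10 arm (squares); each point is 1 heart, bars are means and the open circle is FP38, which was left out. The LOEL 6h hearts have low heart muscle sums (63515 to 78823), but these are not the only low ones. In the LD10 arm FP41 (54759) lies below them and FP21 (74471) lies among them. FP38 lies far outside the ranges of the other hearts for both sums (4374 for heart muscle and 12181 for epithelium).

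The LOEL 6h count depended on single mice and on the processing. It was 0 without FP25, FP30, FP33 or FP49, and 16 without FP47, whose heart muscle sum (91829) was the lowest of the LOEL 0h hearts. It was 6 without FP32 or FP45 and 5 without FP24, FP41, FP20 or FP21. By edgeR's quasi-likelihood test it was 0 (35 at an unadjusted p under 0.05), and by DESeq2 it was 6. By limma it was 0 with RLE scaling, 0 with no filter on low values, 9 without FP24 and FP41, and 27 with library weights.

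At 6h in the LD10 arm no miRNA was called by limma, and the LOEL pattern was absent from the values. Unadjusted p was under 0.05 for 10 miRNAs (3.25%), of which 6 (1.95%) were lower, and edgeR and DESeq2 each called 0. miR-30e-5p had 0h values of 25956, 19011, 28554 and 27721 and 6h values of 22638, 25452 and 24915, a log2 fold change of -0.04 (SE 0.13). miR-29c-3p had 0h values of 1245, 786, 1052 and 1008 and 6h values of 1154, 1378 and 1668 (log2 fold change 0.46, SE 0.25). These groups overlapped for both miRNAs. The heart muscle list had a median of 0.21 and the miR-29 family 0.33, with 0.02 over all miRNAs tested. The smallest p belonged to miR-671-3p, at 40.1 ± 6.34 (SD, n = 4) at 0h and 25.5 ± 6.36 (SD, n = 3) at 6h, followed by miR-3082-3p, miR-1247-5p and miR-499-3p, and limma's adjusted p was 1 for each. miR-499-3p, the other arm of the miR-499 hairpin, had the only positive change of these 4 (1.09, SE 0.47), which was 0.62 without FP48. miR-3082-3p reached the filter value of 10 only in 0h hearts (10.2 in FP32, 11.7 in FP21 and 13.8 in FP55). Its lower level at later times is therefore not separate from the filter.

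The difference between the doses at 6h was itself tested, as the LD10 change minus the LOEL change. It passed the limma threshold for 3 miRNAs (0.974% of 308), all with a higher 6h change at LD10. At an unadjusted p under 0.05 there were 49 miRNAs (15.9%), and 13 of these (4.22%) had a lower 6h change at LD10. The difference was 1.49 (SE 0.35, limma adjusted p = 0.0398) for miR-29c-3p, 1.60 (SE 0.38, limma adjusted p = 0.0398) for miR-582-5p and 1.59 (SE 0.40, limma adjusted p = 0.049) for miR-499-5p, on the log2 scale. For miR-499-5p the LOEL mean went from 1149 to 524, while the LD10 mean went from 934 ± 290 (SD, n = 4) to 1330 ± 295 (SD, n = 3). For miR-30e-5p the difference was 0.53 (SE 0.19) and was not called (limma adjusted p = 0.165). Thus its call in one arm and not in the other does not show that the arms differed. DESeq2 called 6 miRNAs for this difference and edgeR 0, and when each library was left out in turn the call held in 14 of 30 fits for miR-29c-3p and miR-582-5p and in 7 for miR-499-5p. None of the 3 passed with RLE scaling (smallest limma adjusted p 0.0534), with no filter (0.0999) or with FP38 and FPB2 put back (0.184), while library weights gave 29 calls, miR-30e-5p among them (adjusted p = 0.0457).

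Across the 308 miRNAs, 102 (33.1%) had the same sign of 6h change in both arms, with Pearson's r of -0.49 and Spearman's rho of -0.48. The arms share no library, but miRNAs within a library are not independent, so these values describe the profiles only. At 24h 64.9% had the same sign (r = 0.59) and at 7 days 52.3% (r = 0.21).

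**Figure D3:**
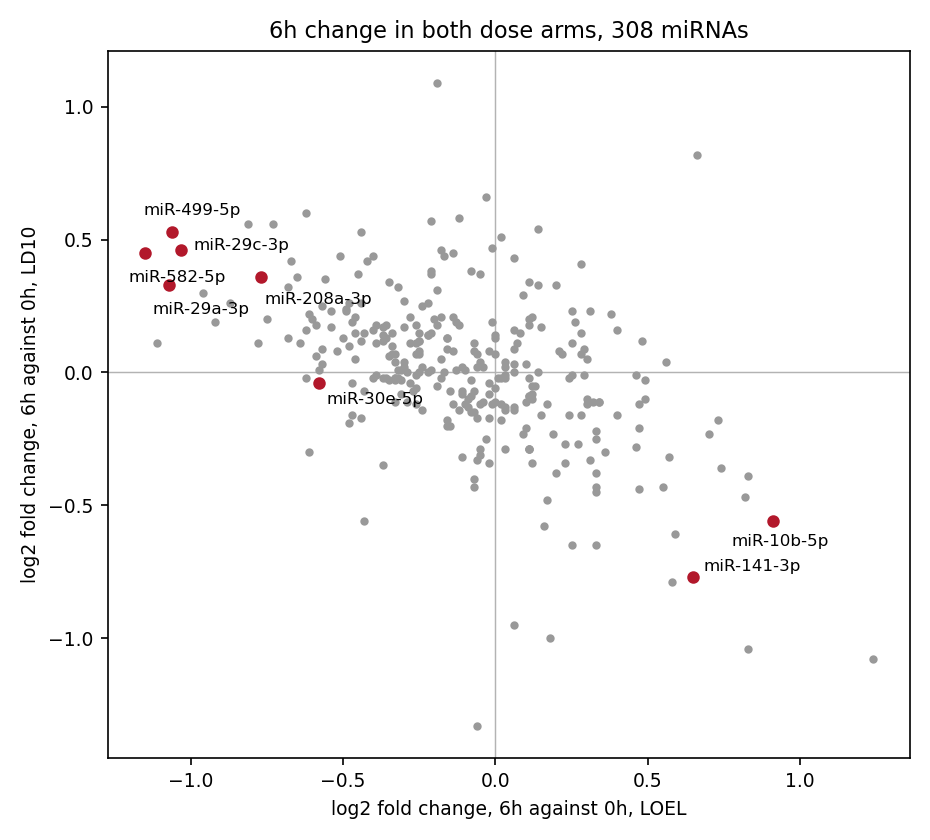
Log2 fold change at 6h against 0h in the LOEL arm (x axis) and in the LD10 arm (y axis) for 308 miRNAs, 1 point each, with named miRNAs in red. The labelled points of miR-499-5p, miR-208a-3p, miR-29a-3p, miR-29c-3p and miR-582-5p lie at the upper left, below 0 in LOEL and above 0 in LD10, and 33.1% of points have the same sign in both arms.

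The doses together gave no called miRNA by limma at 6h, where 3 had an unadjusted p under 0.05 and neither edgeR nor DESeq2 called any. miR-30e-5p came first, with a mean log2 fold change of -0.31 (SE 0.09, limma adjusted p = 0.91). It was followed by miR-21a-3p (0.74), the passenger strand of the injury-linked miR-21, and by let-7c-1-3p (-0.45) and miR-194-5p (-0.31). Of the 10 heart muscle miRNAs tested, 8 had changes of opposite sign in the 2 arms at 6h.

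At 24h no miRNA was called by limma in either arm or over both. The counts at an unadjusted p under 0.05 were 4 for LOEL (1.3%, all lower), 16 for LD10 (5.19%, with 9 lower, 2.92%) and 20 for both doses (6.49%, with 16 lower, 5.19%). edgeR called 0 in each. DESeq2 called 0 within each arm and 6 for both doses. miR-27a-5p, the passenger strand of the miR-27a hairpin, was the only miRNA among the 4 smallest p values of both arms. Its LOEL values were 24.0, 21.3, 14.3 and 27.4 at 0h and 14.9, 7.37, 14.3 and 12.9 at 24h. Its LD10 values were 16.2, 18.4, 32.4 and 12.5 at 0h and 10.3, 8.77, 11.0 and 13.9 at 24h. The 24h hearts were low in both arms, with overlap between the groups in each. Without FP48 the LD10 change went from -0.73 to -0.48. The mean change over both arms was -0.75 (SE 0.19, limma adjusted p = 0.179), and DESeq2 gave an adjusted p of 0.039. Low values of miR-27a-5p were not particular to 24h. At 7 days they were 21.8, 11.3, 9.88 and 13.1 in LOEL and 13.3, 12.3, 11.2 and 11.3 in LD10. At 6h they were 13.7, 15.9 and 11.2 in LOEL, but 15.4, 17.4 and 23.1 in LD10.

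In the LD10 arm at 24h the smallest p was that of miR-15b-5p, of the miR-15 family that restrains the cell cycle. It was 132, 96.1, 63.4 and 71.7 at 0h and 123, 156, 164 and 171 at 24h, with overlap through FP20 at 0h. The change was 0.80 (SE 0.23) and was not called (limma adjusted p = 0.621). All 11 tested members of miR-17-92 and its paralogues, known to promote proliferation, had a positive change (median 0.33), 2 of them at an unadjusted p under 0.05. All 17 tested members of the imprinted cluster had a negative change (median -0.32), 1 at an unadjusted p under 0.05. Over all 308 miRNAs in LD10 at 24h, 135 had a positive and 173 a negative change, and the median was -0.03. In the LOEL arm the corresponding medians were -0.02 and -0.05. The other small p values were those of miR-3082-3p (-1.09) and miR-92b-3p (-1.28) in LD10, and of miR-378a-3p (-0.22), linked to energy metabolism, miR-30e-3p (-0.46) and miR-375-3p (-1.71) in LOEL. Neither miR-3082-3p nor miR-375-3p would have passed the filter without 0h hearts, where they were high. Their lower 24h values are therefore not separate from the filter.

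At 7 days no miRNA was called by limma in LOEL, in LD10 or over both doses. The counts at an unadjusted p under 0.05 were 17 for LOEL (5.52%, with 15 lower, 4.87%), 38 for LD10 (12.3%, with 20 lower, 6.49%) and 23 for both doses (7.47%, with 22 lower, 7.14%). edgeR called 0 in each, and DESeq2 called 0 for LOEL, 1 for LD10 and 5 for both doses. The LD10 arm held the smallest p, for miR-411-5p of the imprinted cluster on chromosome 12. Its values were 759, 563, 663 and 692 at 0h and 476, 468, 408 and 336 at 7 days. Every 7-day heart was below every 0h heart, as for 3.25% of all miRNAs in that comparison. The change was -0.67 (SE 0.16, limma adjusted p = 0.0937), and the DESeq2 adjusted p was 0.0382. In the LOEL arm the change was -0.09 (SE 0.16), and the difference between the arms was -0.58 (SE 0.23, limma adjusted p = 0.59).

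miR-411-5p was near 520 at both 6h and 24h in LD10, between its levels at 0h (669 ± 81.1, SD, n = 4) and 7 days (422 ± 64.5, SD, n = 4). Of the 17 imprinted cluster members tested at 7 days in LD10, 15 had a negative change, as had 167 of all 308 miRNAs. The median was -0.37 against -0.06 over all miRNAs. Lower at an unadjusted p under 0.05 were 3, namely miR-411-5p, miR-127-3p (-0.62) and miR-434-3p (-0.57). The summed cluster was 2674 to 3171 at 0h and 1664 to 2114 in FP16, FP17 and FP27, but 3416 in FP41. In FP41 miR-127-3p was 1165, within its 0h range (734 to 1344), while miR-411-5p was lowest there (336). The members are transcribed together, so they are not independent of one another. miR-671-3p was the second by p at 7 days in LD10. It was 39.1, 46.0, 43.7 and 31.6 at 0h and 22.4, 25.7, 23.8 and 20.9 at 7 days, with no overlap (change -0.75, SE 0.20, limma adjusted p = 0.128).

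**Figure D4:**
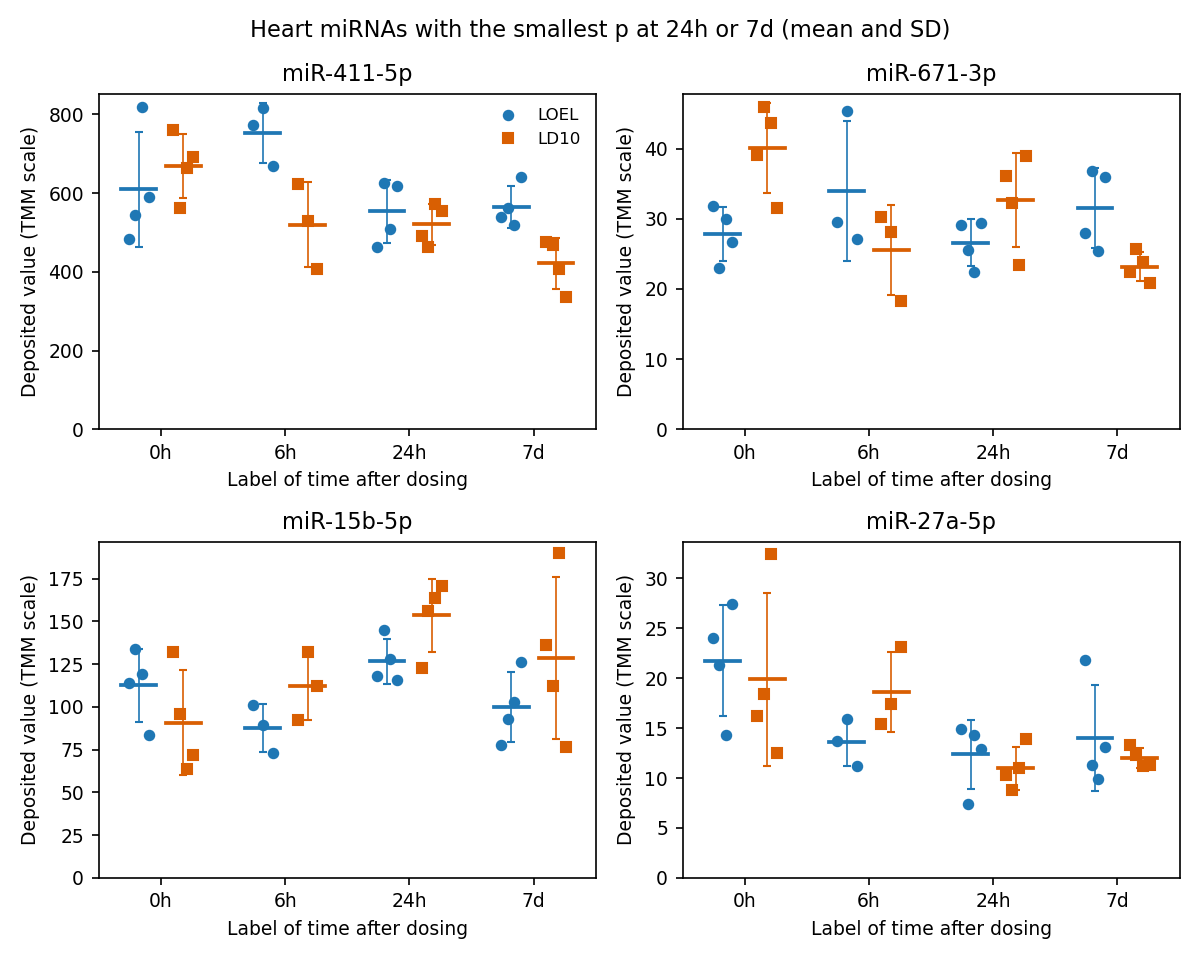
Deposited values (TMM scale, y axis from 0) of miR-411-5p, miR-671-3p, miR-15b-5p and miR-27a-5p by labelled time (x axis) in the LOEL arm (circles) and the LD10 arm (squares); points are hearts, bars means and whiskers SD. miR-411-5p in LD10 is lowest at 7 days (336 to 476) and miR-27a-5p is low at 24h in both arms.

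For a further pair of miRNAs in LD10 at 7 days, 1 heart set the size of the change. miR-22-5p was 105, 88.8 and 105 in 3 hearts and 219 in FP41, and its change of 0.70 became 0.42 without FP41. miR-350-3p was 17.4, 20.7 and 21.5 in 3 hearts and 64.8 in FP41, and its change of 0.93 became 0.52. In FP41 the heart muscle sum was 54759, the lowest of the 30, and the epithelial sum was 614. The miR-29 family had a median of 0.53 at 7 days in LD10, with 3 of 5 members higher at an unadjusted p under 0.05, as were 18 of all 308 miRNAs, and none called by limma, edgeR or DESeq2. For miR-29c-3p the 7-day values were 1451, 1398, 1449 and 1357, all above the 0h hearts, as for 1.62% of all miRNAs (change 0.49, SE 0.23, limma adjusted p = 0.387).

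In the LOEL arm at 7 days the smallest p values were those of miR-34b-5p (-1.68), from the p53-responsive miR-34 family, miR-708-3p (-1.38), miR-107-3p (-0.40) and miR-16-1-3p (-0.75), each with a limma adjusted p of 0.772. Of the 3 miR-34 members tested, 2 were lower at an unadjusted p under 0.05 (median -1.07), among them miR-34c-5p (-1.07). Over all 308 miRNAs 15 (4.87%) were lower at that level. miR-34b-5p was 5.65, 42.6, 15.5 and 8.65 at 0h and 0, 7.86, 6.12 and 5.92 at 7 days. The 0 came from FP24, where 1 read was worth 3.11, so the level there was below what that depth can show. Its change was -0.95 without FP24 and -2.06 without FP25. The LOEL 0h hearts ranked alike by miR-34b-5p and by the summed epithelial list (820 in FP30, 511 in FP32, 296 in FP47 and 115 in FP25). In FP38, left out and with an epithelial sum of 12181, miR-34b-5p was 311. The part of epithelial material in the miR-34b-5p change was not tested. For miR-107-3p the 7-day hearts were 357, 344, 364 and 366, all below the 0h hearts (391 to 630), as for 2.27% of all miRNAs in that comparison, and the change was -0.26 without FP47.

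Of the 7 epithelial miRNAs tested, all 7 had a negative change at 7 days in LOEL and 6 in LD10, and limma called none. Over all 308 miRNAs, 194 in LOEL and 167 in LD10 had a negative change. miR-141-3p, of the miR-200 family that keeps epithelial cells from becoming mesenchymal, was 17.3, 146, 81.7 and 30.6 at 0h and 15.5, 14.7, 28.7 and 19.3 at 7 days in LOEL. In LD10 it was 106, 131, 21.1 and 17.1 at 0h and 13.3, 15.6, 34.4 and 26.7 at 7 days. In each arm 2 of the 0h hearts were high (FP30 and FP32, FP20 and FP21), and the other 0h hearts were in or near the 7-day range. Over both doses at 7 days the change was -1.26 (SE 0.40, limma adjusted p = 0.34), and the 7 epithelial miRNAs tested all had a negative change (median -1.22, against -0.05 over all miRNAs), with 0 called by limma and by edgeR, 4 at an unadjusted limma p under 0.05, and 3 called by DESeq2. The smallest p values over both doses at 7 days also took in miR-27a-5p (-0.61) and miR-101a-5p, whose limma adjusted p was above the threshold too.

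By DESeq2, miR-141-3p, miR-200b-3p, miR-429-3p, miR-375-3p and miR-92b-3p were called lower over both doses at 24h and at 7 days. The first 3 are on the epithelial list, and miR-375-3p is on the list for liver and gut. Without the 0h hearts, in some of which it was high, miR-375-3p would not have passed the filter. Its calls as lower than 0h at 24h and at 7 days are therefore not separate from the filter. The summed epithelial list ranged from 115 to 820 at 0h and from 137 to 183 at 7 days in LOEL, and from 150 to 686 and 136 to 614 in LD10. The part of attached epithelial tissue in these values was not tested.

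**Figure D5:**
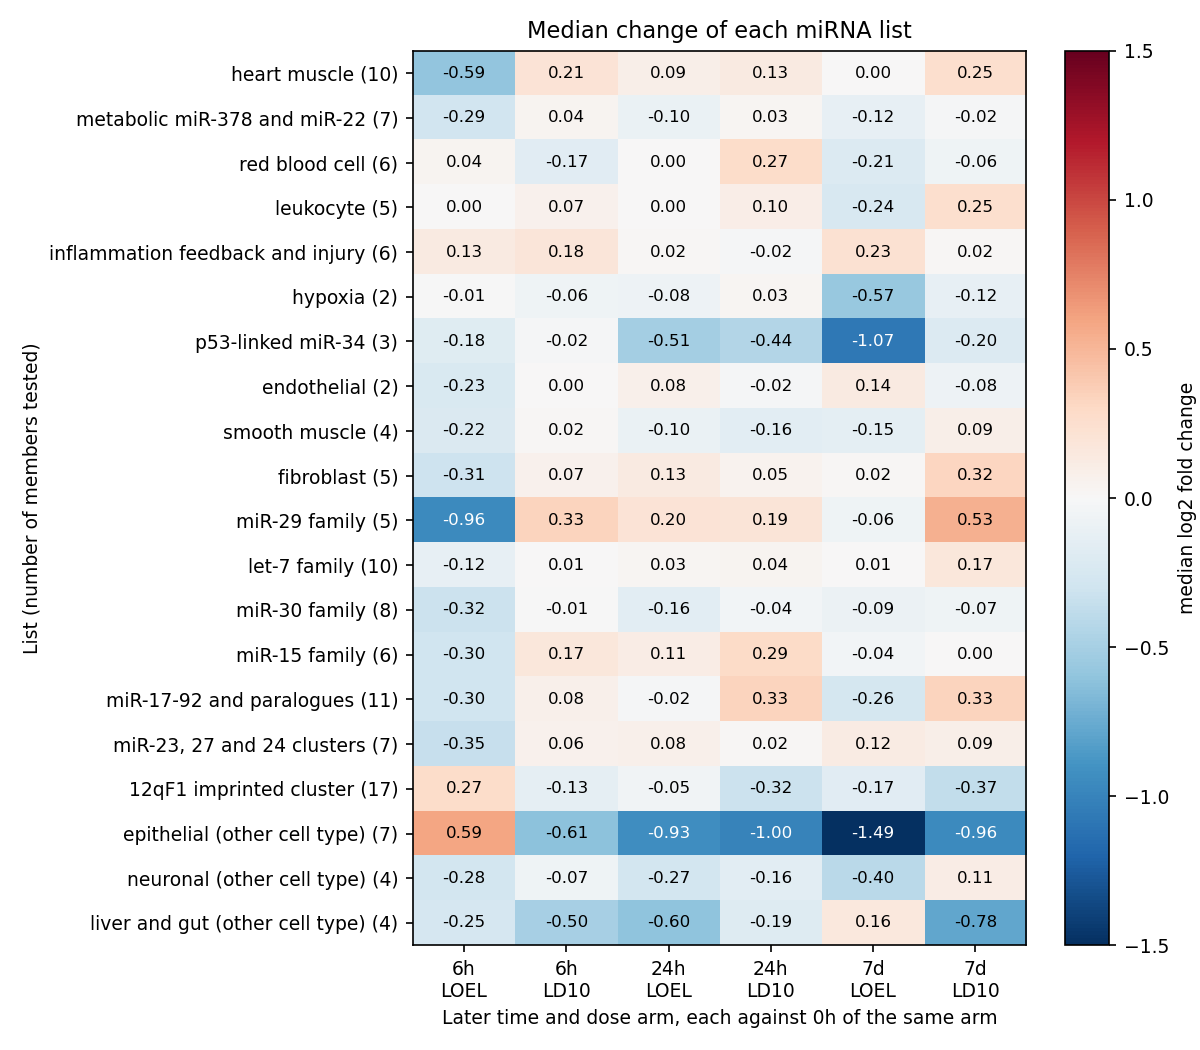
Median log2 fold change against 0h of the tested members of 20 miRNA lists (rows, number of members in brackets) at 6h, 24h and 7 days in each dose arm (columns), with blue below 0 and red above. The miR-29 family (-0.96) and heart muscle (-0.59) stand lowest at LOEL 6h, and the epithelial list is negative in every column but that one.

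Over all times, the limma test for any change from 0h with both doses averaged called 0 of 308 miRNAs, with 32 (10.4%) at an unadjusted p under 0.05, none by edgeR and 7 by DESeq2. The test for any difference between the doses in their course over time also called 0, again with 32 (10.4%) at an unadjusted p under 0.05, and neither count tool called any. The 3 smallest p values in it belonged to miR-29c-3p (limma adjusted p = 0.216), miR-582-5p (0.227) and miR-499-5p (0.239). The pairwise differences at 24h and at 7 days called 0 by limma, edgeR and DESeq2, with 1 and 22 miRNAs at an unadjusted p under 0.05.

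Of the most abundant members of the remaining lists, none was called in the 6 comparisons within an arm. The smooth muscle miRNA miR-143-3p ran from -0.36 to -0.09 on the log2 scale and miR-145a-5p from -0.28 to 0.28. The injury-linked miR-21a-5p ran from -0.11 to 0.20, and let-7f-5p, of a family tied to differentiation, from -0.24 to 0.15. The fibroblast miRNA miR-199a-3p ran from -0.26 to 0.26. Wider ranges were seen for miR-182-5p (-1.65 to 1.24), on the epithelial list, and miR-215-5p (-1.10 to 0.25), on the list for liver and gut. The red cell miRNA miR-486a-5p also had a wider range (-0.44 to 0.47), and its highest and lowest changes were those at 6h in LOEL and LD10.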

How the data were processed

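Small RNA was sequenced from hearts (TruSeq Small RNA libraries, NextSeq 500), and per the labels and the study's methods reads were checked with FastQC, mapped with Bowtie 1.0.0 to mature mouse miRNAs (mm9) and normalised with edgeR's TMM by the authors. The deposited signal is gene counts divided by a size factor: 100% of 31938 low values were whole reads within 0.1, and reads were recovered from these steps. The authors' processing could move values through the TMM factors, which assume that most miRNAs do not change. The total value per library was 862164 to 1195002.

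Columns were mapped to samples by mouse number, and FP38 was left out by the choice of libraries. A miRNA was kept if 3 or more libraries had a value of 10 or above. Log2(value + 1) was fitted with limma 3.58.1 (R 4.3.3) with 8 group means over the 30 libraries and a mean trend, and p-values were adjusted over 308 miRNAs. The study's methods give an ANOVA of dose, time and their interaction over all its doses. Here limma was used in its place, on 2 doses and with adjusted p-values. Replicates are separate mice by label, and the closest pair within a group had a chi-square per degree of freedom of 23.1, so no pair was treated as a single library. Alternatives used edgeR 4.0.16 (quasi-likelihood) and DESeq2 1.42.0 on recovered reads, other scaling (RLE), pseudocounts, filters, library weights and left-out libraries, and the fit was tested on simulated data.

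The libraries, lists and tests were chosen with earlier results of these data known. The naming rule took in miRNAs that were called, that were among the 4 smallest p of a comparison (3 for the dose by time test), or that were among the 2 most abundant of a list (of the last, the ones printed were chosen after their values were seen). Others named (among them miR-29b-3p, miR-208a-3p, miR-10b-5p and miR-200b-3p) were chosen after their values were seen. Mature sequences were matched to RefSeq by name (15 of 15 looked up). Counts of reads are PCR products without molecular identifiers.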

Additional observations from a re-analysis of the deposited data

Results flagged for a closer look

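Of 77 groups of 4 hearts examined, 4 held a heart far from the others by Dixon's test, and chance flags about 5% of groups. They were miR-22-5p at 219 in FP41 (LD10, 7 days, next 105), miR-350-3p at 64.8 in FP41 (next 21.5), miR-375-3p at 7.44 in FP39 (LOEL, 24h, next 1.10) and miR-101a-5p at 36.6 in FP48 (LD10, 0h, next 23.4). The 6h change differed between the doses, by limma's test of the difference, for miR-29c-3p (1.49), miR-499-5p (1.59) and miR-582-5p (1.60), as LD10 minus LOEL. DESeq2 called them too, but edgeR (adjusted p 0.0636 to 0.0689) and limma with RLE scaling did not. The limma test of dose by time over all times called 0. FP38, the fourth LOEL 6h heart, was left out of the 30 libraries and used only in alternatives. It had a summed epithelial list of 12181, where the 30 libraries had 115 to 820, with miR-133a-3p at 4073 and miR-141-3p at 3372.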

How the results depend on the processing

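No paired analysis was possible because the mouse numbers differ between groups. The LOEL 6h count of 3 became 0 with RLE scaling, 0 by edgeR, 0 with no filter, 6 by DESeq2, 12 with all heart libraries (FP91 entered as sham by its label, although its column is named LD10), 1 with FP38 and FPB2 put back, 5 without the low-depth library, 27 with library weights (24 lower) and, chosen after seeing the data, 9 without FP24 and FP41. It kept all 3 miRNAs with pseudocounts of 0.25 and 4. Leaving out 1 replicate at a time gave 0 to 16. Counts of 0 became 1 by DESeq2 for LD10 at 7 days, 6 and 5 for both doses at 24h and 7 days, and 7 for any time. With no filter they became 1 for LD10 at each of 6h, 24h and 7 days. Library weights gave 1 for LD10 at 24h, 19 for any time and 8 for dose by time, and leaving out FP24 and FP41 gave 1 for any time. Leaving out 1 replicate gave 0 to 1 for LD10 at 7 days and for any time and 0 to 2 for dose by time. The one change of sign was miR-30e-5p at LD10 6h, from -0.17 to 0.02 over such fits. The causes were not tested. Low-depth hearts limit what can be seen of miRNAs under about 10.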

Other observations

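Lists for inflammation, hypoxia and blood cells held no called miRNA at any time in either arm. miR-146a-5p, induced by inflammatory signalling, was at 0.70 (SE 0.31, limma adjusted p = 0.772) in LOEL at 7 days and at 0.18 in LD10. miR-210-3p, induced by hypoxia-inducible factor, was between -0.24 and -0.08 in all 6 comparisons within an arm. The red cell miRNA miR-451a was at 0.56 (limma adjusted p = 0.915) in LD10 at 24h and 0.57 (limma adjusted p = 0.387) at 7 days. The lymphocyte miRNA miR-150-5p was at -0.95 (SE 0.44, limma adjusted p = 0.387) in LD10 at 7 days and at -0.24 in LOEL.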
